A study of Mus musculus with 8 samples.

Results

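The naive pluripotency transcription factors examined were *Nanog*, *Pou5f1*, *Sox2*, *Klf2*, *Klf4*, *Klf5*, *Esrrb*, *Tbx3*, *Zfp42* and *Tfcp2l1*. They were taken as a named set, and every probe whose RefSeq accession mapped to one of these symbols was used. All 10 genes were found, among 19751 genes with a named probe, through 11 probes, of which *Tfcp2l1* had 2. All 11 were well above background on all 8 arrays, and all 10 genes were among the 13652 genes tested.

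The cells were VV3 ESCs, a male mouse line with a Venus reporter of *Vasa* (*Ddx4*), grown with serum and LIF on STO feeders and given siRNA to *L3mbtl2* (4 samples, *L3mbtl2*-KD) or AllStars siRNA, which silences no gene (4 samples, control). Each of the 8 RNA samples had its own one-colour array, and signal is given as log2 intensity minus the 75th percentile of the array. According to the methods, *Vasa*-positive cells were purified by FACS, and no sort of the control cells is described for the arrays, so an effect of the knockdown and one of the sort cannot be told apart. In *L3mbtl2*-KD samples the 75th percentile was an intensity of 791 to 1038, with 59.5 to 63.9% of spots well above background, and in control samples 854 to 1024, with 62.0 to 66.6%. The number of arrays limits the precision.

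In ESCs, POU5F1 and SOX2 bind DNA together at the genes that maintain pluripotency, and NANOG, ESRRB, TFCP2L1, TBX3 and the Krüppel-like factors KLF2, KLF4 and KLF5 hold the cells in the naive state, which corresponds to the epiblast before implantation. LIF acts through the kinases JAK and the factor STAT3, and *Klf4* and *Tfcp2l1* are known targets of STAT3. L3MBTL2 is a subunit of PCGF6-PRC1, a Polycomb complex that also holds MAX and its partner MGA and is recruited to germ cell-related genes in ESCs.

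The siRNA target was lower in every knockdown sample. *L3mbtl2* signal was 0.27, -0.18, -0.21 and -0.31 in control replicates 1 to 4 and -1.45, -1.26, -1.58 and -1.73 in *L3mbtl2*-KD replicates 1 to 4. The groups did not overlap, and the log2 fold change was -1.40 (SE 0.15, adjusted p = 0.00094), which left 37.9% of control (95% CI 29.8 to 48.2%). *Ddx4*, on whose reporter the cells were sorted, was higher by 2.83 on the log2 scale (adjusted p = 4.87e-06). Its rise cannot be assigned to the sort or to the knockdown.

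Among the 10 members, 1 fell in *L3mbtl2*-KD ESCs, *Klf4*, and 0 rose. Of all genes tested with limma, 11.7% fell and 10.3% rose, so the share of members past the test was near the background. At an unadjusted p under 0.05, 3 members were lower and 0 higher, against 20.5% and 18.2% of all genes. A one-way test of each probe gave 2 and 0, against 19.4% and 18.1%, so these counts of members lower were near the background too. No member passed the test with a change over 2-fold, against 3.21% of genes that fell and 2.49% that rose by that much. At an unadjusted p, 1 member (*Nanog*) was lower by over 2-fold and 0 were higher, against 3.57% and 2.65% of all genes, and the one-way test gave 0 and 0, against 3.44% and 2.59%. With normexp background correction, the genes past 2-fold changed from 340 that rose and 438 that fell to 194 and 159. The members' log2 fold changes were nonetheless mostly of one sign. In all, 9 members were lower, all but *Zfp42*, whereas 48.4% of all genes tested were higher. The median log2 fold change was -0.25 over the members and -0.01 over all genes, and the median size was 0.25 and 0.21. The count of members lower was the same under quantile normalization, normexp correction and the authors' table.

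The replicate numbers paired the samples, as the arrays of one number deviated together from their group means. Pairs are therefore given where they change the call of a member or of a list gene named below. With the replicate number as a block, 3 members fell, *Klf4*, *Tbx3* and *Tfcp2l1*, and 0 rose. In the same fit 26.0% of all genes fell and 23.9% rose, so this share too was near the background. In addition, 6 members (*Klf4*, *Tbx3*, *Tfcp2l1*, *Pou5f1*, *Sox2* and *Esrrb*) were lower in all 4 pairs, as were 32.7% of all genes, and *Zfp42* was higher in all 4 pairs, as were 31.1%. The groups did not overlap for 2 members, *Klf4* and *Pou5f1*, against 26.4% of all genes. In bulk RNA, fewer cells of a type and less RNA per cell cannot be told apart.

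**Figure D1:**
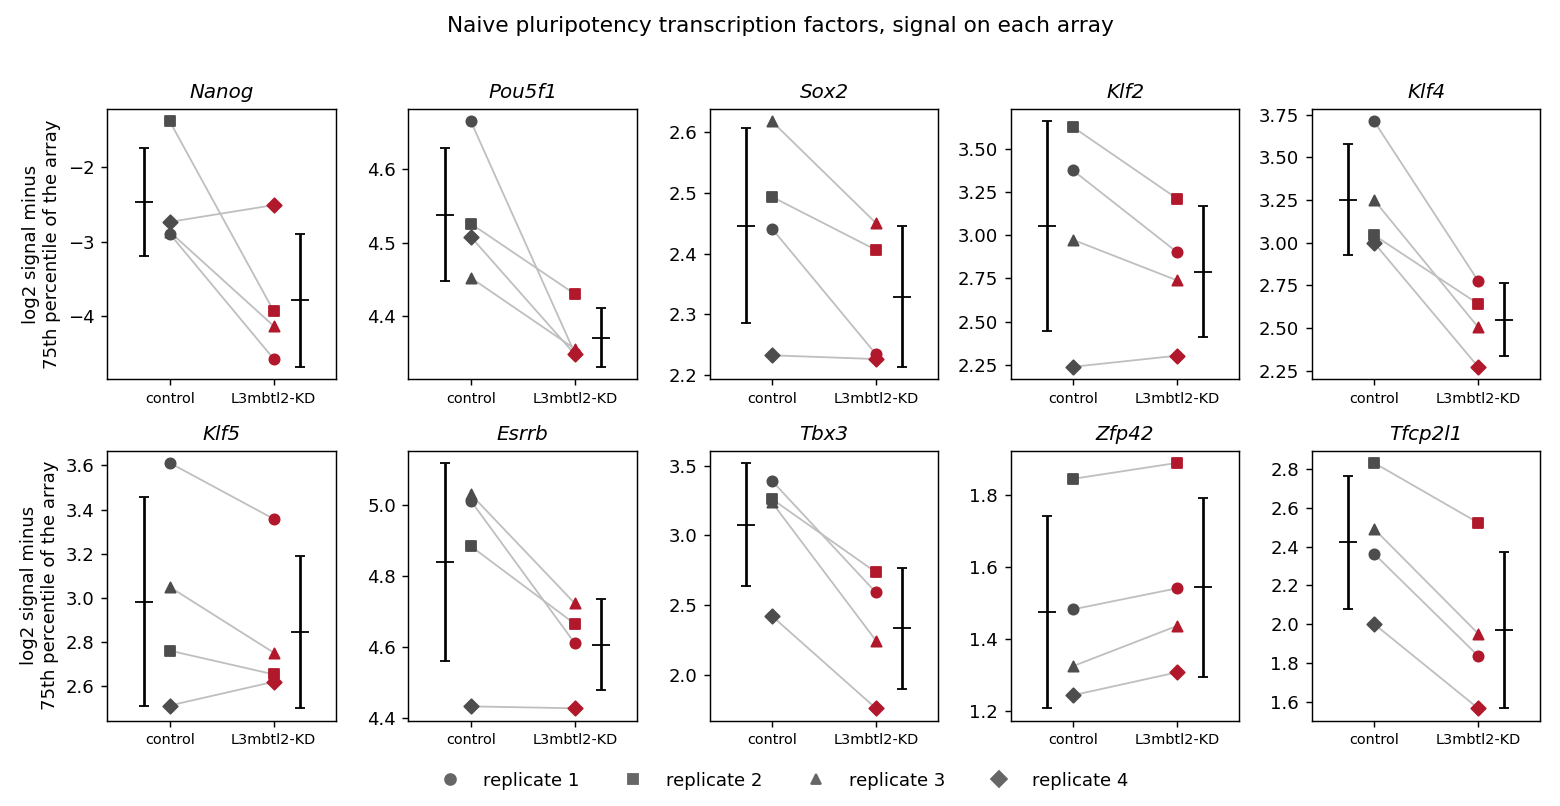
Signal of each member on each array (log2 intensity minus the 75th percentile of the array), with its own axis for each gene, in control (grey) and *L3mbtl2*-KD (red) samples. Lines join samples with the same replicate number, and the bars beside them are the mean ± SD of 4 samples. The groups are apart for *Klf4* and *Pou5f1* and overlap for the other members. All 4 lines fall for *Klf4*, *Tbx3*, *Tfcp2l1*, *Pou5f1*, *Sox2* and *Esrrb*.

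*Klf4* encodes a Krüppel-like factor downstream of LIF and was the member past the test in both fits. Its signal was 3.71, 3.04, 3.25 and 2.999 in control replicates 1 to 4 and 2.78, 2.64, 2.50 and 2.27 in *L3mbtl2*-KD replicates 1 to 4. Every knockdown sample was below every control sample, with control replicate 1 the highest. *Klf4* fell by 0.70 on the log2 scale (SE 0.18, adjusted p = 0.0274, exact permutation p = 0.0286, the smallest that 4 against 4 samples allow), to 61.5% of control (95% CI 46.5 to 81.3%). The difference was -0.67 on slide 1 and -0.74 on slide 2. The call was lost when control replicate 3 (log2 fold change -0.70, adjusted p = 0.06915), *L3mbtl2*-KD replicate 3 (-0.69, 0.0679) or *L3mbtl2*-KD replicate 4 (-0.61, 0.0709) was left out. It was also lost with no filter on dim probes (adjusted p = 0.0673) and with Benjamini-Hochberg adjustment of the one-way test (0.0641), and over all settings tried the adjusted p lay between 0.00578 and 0.0709.

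*Tfcp2l1* encodes a CP2-family factor that acts downstream of STAT3 in ESC self-renewal. Its brighter probe gave 2.36, 2.83, 2.49 and 2.00 in control replicates 1 to 4 and 1.84, 2.52, 1.95 and 1.57 in *L3mbtl2*-KD replicates 1 to 4. The groups overlapped, as *L3mbtl2*-KD replicate 2 lay above control replicates 1, 3 and 4, but each knockdown sample was below the control of its own number. The log2 fold change was -0.45 (SE 0.23, adjusted p = 0.211, exact permutation p = 0.143), and with the replicate block the SE was 0.057 and the adjusted p 0.0049, within a range over all settings tried of 0.0049 to 0.419. The pair differences were -0.53, -0.31, -0.54 and -0.43. The other probe of *Tfcp2l1* gave a log2 fold change of -0.54 (adjusted p = 0.207, and 0.0172 with the block), also lower in all 4 pairs.

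*Tbx3*, a T-box factor that sustains *Nanog* expression in ESCs and also takes part in extraembryonic endoderm, followed the same pattern. Its signal was 3.39, 3.26, 3.24 and 2.42 in control replicates 1 to 4 and 2.59, 2.74, 2.25 and 1.76 in *L3mbtl2*-KD replicates 1 to 4. Control replicate 4 lay below the other control samples and below *L3mbtl2*-KD replicates 1 and 2, so the groups overlapped. The log2 fold change was -0.74 (SE 0.27, adjusted p = 0.089, exact permutation p = 0.0857), or 59.8% of control (95% CI 39.1 to 91.2%). With the replicate block the adjusted p was 0.00403, and the pair differences were -0.80, -0.52, -0.99 and -0.66. Without control replicate 4, the log2 fold change was -0.96 and the adjusted p 0.0327 with no block, and over all settings tried the adjusted p lay between 0.00403 and 0.189.

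*Nanog* encodes a homeobox factor of the naive state, and the signal of its 1 probe varied widely between samples. Its signal was -2.89, -1.38, -2.87 and -2.73 in control replicates 1 to 4 and -4.57, -3.93, -4.13 and -2.51 in *L3mbtl2*-KD replicates 1 to 4. Control replicate 2 was high, and *L3mbtl2*-KD replicate 4 lay among the control samples, so the groups overlapped. The log2 fold change was -1.32 (SE 0.49, adjusted p = 0.0962, exact permutation p = 0.114), with 3 of 4 pairs lower (-1.68, -2.54 and -1.26) and the fourth higher (0.23). It was -2.11 on slide 1 and -0.52 on slide 2, and -0.69 with normexp correction, so its size differed with the background correction and between the slides. The pair that was higher lay on slide 2, and an effect of the slide itself was not tested. Without *L3mbtl2*-KD replicate 4 the log2 fold change was -1.74 with an adjusted p of 0.0271. Over all settings tried the adjusted p lay between 0.0271 and 0.196. The intensity of this probe ran from 35.0 to 327, below the 75th percentile of every array and below every other member probe. The spread and the fold change are thus those of a dim probe.

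*Pou5f1* and *Sox2*, the core pair, differed little between the groups. *Pou5f1* signal was 4.67, 4.53, 4.45 and 4.51 in control replicates 1 to 4 and 4.35, 4.43, 4.35 and 4.35 in *L3mbtl2*-KD replicates 1 to 4. All knockdown samples were below all control samples, with *L3mbtl2*-KD replicate 2 nearest to them. The log2 fold change was -0.17 (SE 0.078, adjusted p = 0.171, exact permutation p = 0.0286), which is 89.0% of control (95% CI 78.7 to 100.7%). For *Sox2* it was -0.12 (SE 0.11, adjusted p = 0.487), with signal of 2.23 to 2.62 in control and 2.23 to 2.45 in *L3mbtl2*-KD samples, so the groups overlapped. Leaving out single samples gave -0.19 (without control replicate 4) to -0.06 (without control replicate 3).

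Of the remaining members, *Esrrb*, an orphan nuclear receptor of the naive network, had signal of 4.43 to 5.03 in control and 4.43 to 4.72 in *L3mbtl2*-KD samples (log2 fold change -0.23, SE 0.14, adjusted p = 0.299). Without control replicate 4 it was -0.37 (adjusted p = 0.0562, with a range over all settings of 0.0562 to 0.53). The Krüppel-like factors *Klf2* (-0.26, SE 0.31, adjusted p = 0.594) and *Klf5* (-0.14, SE 0.25, adjusted p = 0.752) did not pass the test, each with 3 of 4 pairs lower. The 95% CI of their log2 fold changes, -0.96 to 0.44 for *Klf2* and -0.72 to 0.44 for *Klf5*, included both directions. The value of *Klf2* was -0.54 without control replicate 4 and -0.07 without control replicate 2. Without control replicate 1, the value of *Klf5* turned to 0.07.

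*Zfp42* (*Rex1*), a zinc finger gene widely used as a marker of the naive state, was the member whose mean was not lower in *L3mbtl2*-KD ESCs. Its signal was 1.48, 1.85, 1.32 and 1.24 in control replicates 1 to 4 and 1.54, 1.89, 1.44 and 1.31 in *L3mbtl2*-KD replicates 1 to 4. The groups overlapped almost fully, with replicate 2 the highest and replicate 4 the lowest of each. The log2 fold change was 0.07 (SE 0.17, 95% CI -0.31 to 0.45, adjusted p = 0.812). The value turned to -0.01 without control replicate 4 and to -0.05 without *L3mbtl2*-KD replicate 2.

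**Figure D2:**
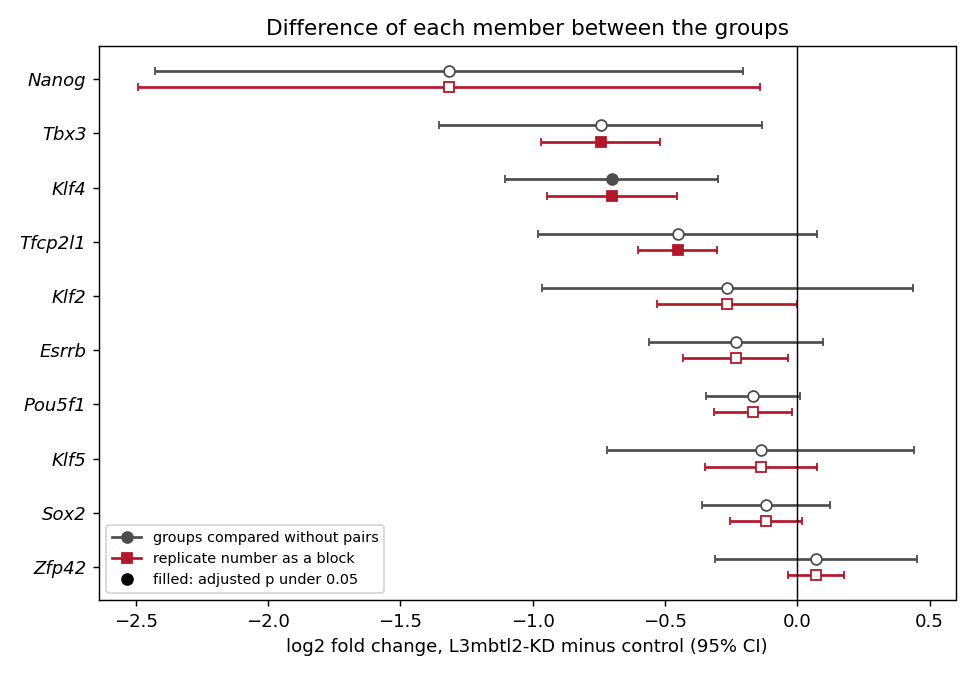
Log2 fold change of each member (*L3mbtl2*-KD minus control) with its 95% CI, from the groups compared without pairs (grey circles) and with the replicate number as a block (red squares); filled symbols have an adjusted p under 0.05. *Klf4* is filled in both fits, *Tbx3* and *Tfcp2l1* with the block alone, and the interval of *Nanog* is the widest.

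To show the start regions of the members that the comparison turned on, promoter windows were taken from RefSeq (build GRCm38.p6), where 8 of the 10 members had an entry, with 11 windows in all. *Klf5* and *Tbx3* had no entry. Each window of 300 bases, from 250 before to 50 after the start site, was searched on both strands for short motifs. These were the E-box of the MAX and MYC families (CACGTG), the octamer of POU5F1 (ATGCAAA), the site of STAT3 (TTCCNGGAA), a Krüppel-like factor box (GGGTGTGG), the site of ESRRB (TCAAGGTCA), a T-box half-site (GGTGTGA) and an E2F site (GCGGGAA). The octamer was searched without its last base, so a match does not show the whole octamer. The Krüppel-like factor box and the T-box half-site share the letters GGTGTG.

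The E-box was in 7.15% of the 32851 windows in the table, the octamer in 4.63%, the STAT3 site in 1.15%, the Krüppel-like factor box in 3.56%, the ESRRB site in 0.423%, the T-box half-site in 3.98% and the E2F site in 4.6%. The E-box and the E2F site each matched in 1 member, *Klf4*, at positions -182 to -177 and -129 to -123 from the start site. The octamer matched in 4 of the 11 windows, from 3 members, *Nanog*, *Sox2* and *Zfp42*. The overlapping windows of *Nanog* held the same site. The Krüppel-like factor box matched in 1 window, that of *Zfp42*. The STAT3 site, the ESRRB site and the T-box half-site matched in 0 of the 11 windows. These matches are a description of the letters in each window, and binding was not measured on these arrays.

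The 250 bases before the start site are given 5′ to 3′ on the strand of the gene, with matched motifs in capitals, for *Klf4* and *Tfcp2l1*, which passed the test in at least one fit, *Nanog*, whose value depended on single samples and on the background correction, and *Zfp42*, which had a positive value. The windows are *Klf4* (chr4:55532476-55532725, minus strand), *Tfcp2l1* (chr1:118627695-118627944, plus strand), *Nanog* (chr6:122707239-122707488, plus strand) and *Zfp42* (chr8:43307010-43307259, minus strand). Capitals mark the E-box and then the E2F site in *Klf4*, the octamer in *Nanog*, and the octamer and then the Krüppel-like factor box in *Zfp42*, and *Tfcp2l1* had no match.
Klf4: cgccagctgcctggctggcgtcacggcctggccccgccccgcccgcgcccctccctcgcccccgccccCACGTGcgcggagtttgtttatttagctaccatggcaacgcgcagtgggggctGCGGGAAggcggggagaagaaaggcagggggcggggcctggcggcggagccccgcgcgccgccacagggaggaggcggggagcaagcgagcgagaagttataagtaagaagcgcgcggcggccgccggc
Tfcp2l1: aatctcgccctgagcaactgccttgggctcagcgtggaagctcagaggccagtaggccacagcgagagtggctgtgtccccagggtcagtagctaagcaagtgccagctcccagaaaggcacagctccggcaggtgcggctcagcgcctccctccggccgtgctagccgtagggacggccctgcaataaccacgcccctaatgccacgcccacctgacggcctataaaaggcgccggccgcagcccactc
Nanog: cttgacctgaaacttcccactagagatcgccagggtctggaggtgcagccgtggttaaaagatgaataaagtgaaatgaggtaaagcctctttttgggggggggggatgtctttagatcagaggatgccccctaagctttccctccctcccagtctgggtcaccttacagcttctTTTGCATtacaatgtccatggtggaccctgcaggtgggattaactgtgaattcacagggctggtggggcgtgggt
Zfp42: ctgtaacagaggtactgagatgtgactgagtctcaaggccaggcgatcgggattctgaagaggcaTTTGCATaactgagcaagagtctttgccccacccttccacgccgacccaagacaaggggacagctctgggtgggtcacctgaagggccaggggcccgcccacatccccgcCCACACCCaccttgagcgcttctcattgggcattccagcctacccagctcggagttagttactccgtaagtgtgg

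The *Klf4* window had 74.3% G and C and 40 CpG over its 300 bases, that of *Tfcp2l1* 65.3% and 21, that of *Zfp42* 57.7% and 11, and that of *Nanog* 54.3% and 4. The median over all windows in the table was 52.7% and 7. The *Klf4* window was thus the richest of these in CpG and the *Nanog* window the poorest.

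The members also varied together within the groups. Replicate 4 was the lowest control sample for 8 of 10 members, all but *Nanog* and *Pou5f1*, and the lowest *L3mbtl2*-KD sample for 9 of 10, all but *Nanog*. Over all genes tested, replicate 4 was the lowest for 23.1% in control and 21.0% in *L3mbtl2*-KD samples. This was noticed after the values had been seen. The deviations of the members from their group means, over the 8 arrays, had a Pearson r above 0 in 36 of 45 pairs of genes and above 0.5 in 20 (80% and 44.4%), with a median of 0.43. Over all pairs of 13608 tested genes these shares were 50.3% and 20.8%, computed after the member values had been seen. The arrays of a pair share a slide and a replicate number.

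The highest r were between *Klf2* and *Tbx3* (0.91), *Zfp42* and *Tfcp2l1* (0.91) and *Klf4* and *Klf5* (0.90). *Sox2* was most like *Esrrb* among the members (0.86), whereas r between *Sox2* and *Pou5f1* was -0.04. *Nanog* stood apart, with r between -0.66 (with *Klf4*) and 0.16 (with *Zfp42*). These r describe 8 arrays, with no test.

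**Figure D3:**
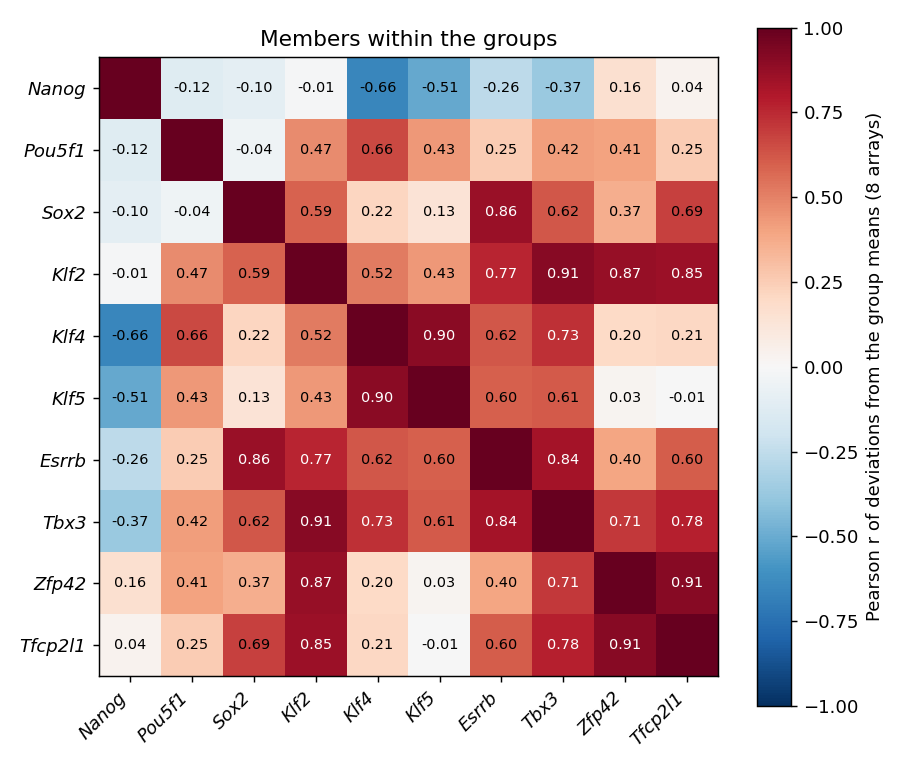
Pearson r between each pair of members, of the deviations of their signal from the group means over 8 arrays (color scale from -1 to 1). The block of *Klf2*, *Tbx3*, *Zfp42* and *Tfcp2l1* is between 0.71 and 0.91, and the *Nanog* row runs from -0.66 to 0.16.

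Outside the set, the gene most like each member over the 8 arrays was searched for among 13598 genes, by Pearson r of the signal. It was *Snx30* for *Tbx3* (0.991), *Tsc1* for *Tfcp2l1* (0.990), *Tmem209* for *Klf4* (0.988), *Smarcad1* for *Klf5* (0.986), *Padi6* for *Pou5f1* (0.984) and *Sigirr* for *Sox2* (0.982). For *Klf2* it was *Mppe1* (0.982), for *Zfp42* *Fbxl21* (0.981), for *Nanog* *Crtap* (0.977) and for *Esrrb* *Cntrl* (0.967). Of these 10 genes *Padi6* fell (log2 fold change -0.49, adjusted p = 0.0454), and the others did not pass the test. With so many genes and 8 arrays, a high r can arise by chance, and how often it does was not tested.

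LIF signals through the receptor subunits LIFR and IL6ST to STAT3. Of 12 LIF-STAT3 pathway genes, 11 were tested, 1 fell and 0 rose with limma, at a median log2 fold change of -0.03 (-0.07 under quantile normalization). In the same fit 11.7% of all genes fell and 10.3% rose. *Stat3* fell by 0.49 on the log2 scale (SE 0.091, adjusted p = 0.00876), and its other probe by 0.70 (adjusted p = 0.00109), with the groups apart for both. At an unadjusted p under 0.05, 2 genes of this list were higher and 2 lower, and a one-way test gave 1 and 2. With the replicate block 5 fell and 2 rose, where 26.0% and 23.9% of all genes did. Those that fell were *Stat3*, the receptor *Lifr* (log2 fold change -0.54, adjusted p = 0.00387, and 0.0965 and 0.115 for its other probes), the STAT3 targets *Socs3* (-0.27, 0.0176) and *Gbx2* (-0.18, 0.0269), and the kinase *Pim3* (-0.24, 0.0157). The kinases *Jak2* (0.25, 0.0312) and *Tyk2* (0.30, 0.00681) rose in that fit. *Pias3*, an inhibitor of STAT3, was well above background on 3 control arrays and no *L3mbtl2*-KD array and was not tested.

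Of 24 other pluripotency genes, 23 had a named probe and were tested, 3 rose and 1 fell, at a median log2 fold change of 0.12 (0.08 under quantile normalization). By the same test 10.3% of all genes rose and 11.7% fell. *Dppa3* (*Stella*), expressed in naive ESCs and in the germ line, rose by 2.44 (SE 0.35, adjusted p = 0.00302), or 1.85 with normexp correction. The paralogues *Dppa2* (0.81, SE 0.23, adjusted p = 0.0416) and *Dppa4* (0.31, SE 0.081, adjusted p = 0.0295) also rose. The other *Dppa2* probe passed the test (0.74, adjusted p = 0.0203), and of the other *Dppa4* probes 1 passed (0.33, adjusted p = 0.0249) and 1 did not (0.08, adjusted p = 0.511). *Mybl2*, a cell cycle regulator, fell by 0.44 (SE 0.085, adjusted p = 0.0102). Its other probe (-0.27) did not pass the test without the replicate block (adjusted p = 0.239) and passed with it (0.0237). The brightest probe of *Dppa2* passed the test when control replicate 1 was left out and in no other such fit, and that of *Dppa4* when *L3mbtl2*-KD replicate 1 or 2 was. With normexp correction the brightest *Dppa4* probe did not pass the test (0.25, adjusted p = 0.0648, with a range over all settings of 0.0135 to 0.0857). The other probes were not followed through these settings one by one. With the replicate block 8 rose and 8 fell, where 23.9% and 26.0% of all genes did. The ESC markers *Utf1* (0.12, adjusted p = 0.617), *Dppa5a* (0.17, 0.298), *Lin28a* (-0.29, 0.312) and *Tdgf1* (-0.28, 0.058) did not pass the test without the block. *Dppa5a* rose with the block (adjusted p = 0.0316), while *Lin28a* (0.0117) and *Tdgf1* (0.00801) fell and *Utf1* did not pass (0.269). These markers were well above background on all 8 arrays, as *Nanog*, *Pou5f1*, *Sox2* and *Zfp42* were.

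Of 15 genes of exit from the naive state and of the formative state, 2 rose and 1 fell (median log2 fold change 0.15), against 10.3% and 11.7% of all genes. *Lefty2* (1.01, SE 0.15, adjusted p = 0.0036) and *Nodal* (0.59, SE 0.092, adjusted p = 0.00423), a Nodal antagonist and its ligand, rose. *Pou3f1* (*Oct6*), a POU factor of the formative state, fell by 0.68 (SE 0.18, adjusted p = 0.0301), a call kept when control replicate 2 or *L3mbtl2*-KD replicate 3 was left out and lost without any other sample. *Fgf5* (-0.17, adjusted p = 0.834) and *Otx2* (-0.13, adjusted p = 0.723), markers of the formative epiblast, did not pass the test. With the replicate block 6 genes rose and 1 fell, where 23.9% and 26.0% of all genes did.

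Of 26 paralogues of the members, 23 were tested, 1 rose and 5 fell (median log2 fold change -0.18), and with the replicate block 4 rose and 11 fell. Over all genes 10.3% rose and 11.7% fell, or 23.9% and 26.0% with the block. *Klf15* (adjusted p = 0.0164), *Klf3* (-0.51, SE 0.11, adjusted p = 0.0132), *Klf11* (-0.49, SE 0.13, adjusted p = 0.0309), *Klf7* (-0.48, SE 0.12, adjusted p = 0.0302) and *Pou3f1* fell. *Klf15*, above background on 3 of 4 *L3mbtl2*-KD arrays, had a fitted log2 fold change of -1.51 (SE 0.33), or -0.72 with normexp correction, so its size is uncertain. *Klf1* was the gene counted as risen (adjusted p = 0.0275), but it was well above background on 1 of 4 control arrays, so no fold is given. With normexp correction its log2 fold change was 0.34 and the call was lost (adjusted p = 0.0811, with a range over all settings of 0.00729 to 0.0811), and with probes above background on all arrays it was not tested. Of the *Klf* calls, that of *Klf3* held whichever sample was left out, that of *Klf15* was lost without control replicate 3 (-1.42, adjusted p = 0.05025, with a range over all settings of 0.00126 to 0.0519), and those of *Klf11*, *Klf7* and *Klf1* held in 2, 3 and 3 of 8 such fits. *Esrrg* and *Tbx5* were above background on no array.

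**Figure D4:**
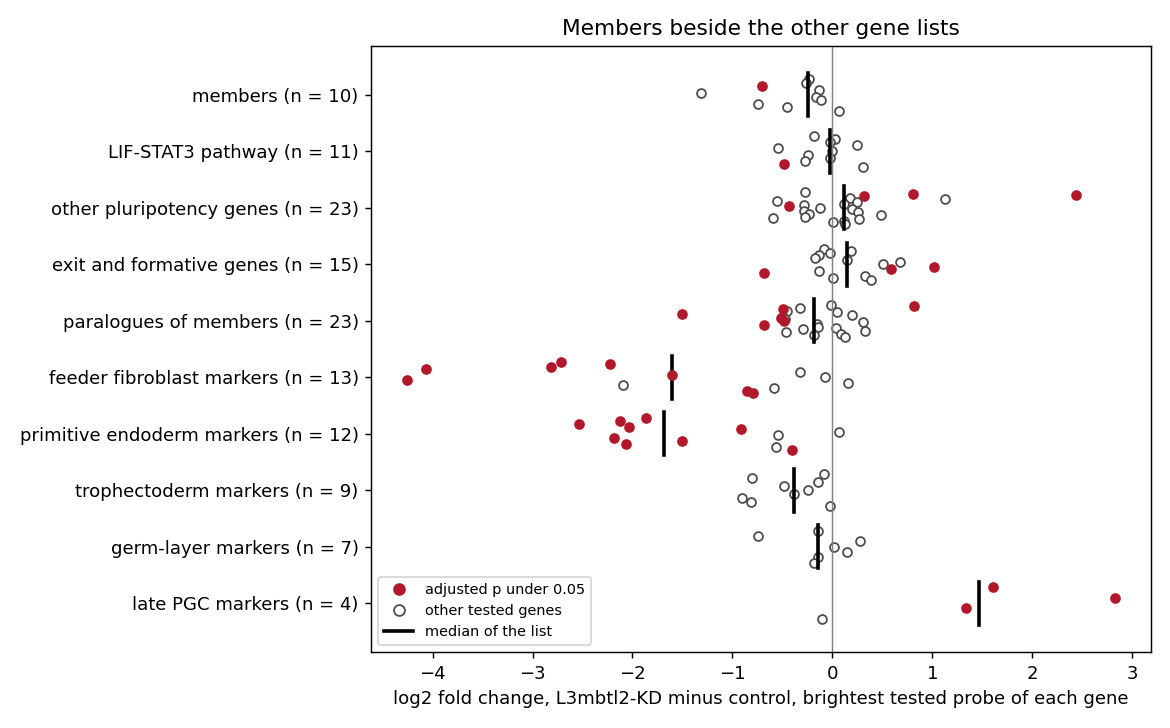
Log2 fold change (*L3mbtl2*-KD minus control) of the brightest tested probe of each gene in each list, with the median of the list as a black bar; red points have an adjusted p under 0.05. The members lie around a median of -0.25, and the feeder fibroblast and primitive endoderm markers around -1.61 and -1.69 (-0.81 and -0.74 with normexp correction). *Col3a1*, *Dcn*, *Foxa2* and *Dab2*, too dim on most or all knockdown arrays, are drawn at their fitted values.

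Markers of other cell types differed between the groups as well. The counts with limma below stand beside 11.7% of all genes that fell and 10.3% that rose. Of 16 feeder fibroblast markers, 13 were tested, 8 fell and 0 rose with limma (9 and 0 at an unadjusted p under 0.05 and by a one-way test of each probe), at a median log2 fold change of -1.61, or -0.81 with normexp correction. Of those tested, 12 were lower, or 11 under quantile normalization or normexp correction, where *Col6a2* turned. *Col1a2* (-2.81), *Acta2* (-2.72) and *Col1a1* (-2.22) fell, with adjusted p of 0.00438, 0.00302 and 0.00619. *Dcn* (adjusted p = 0.000369) and *Col3a1* (adjusted p = 0.00119) fell too, and neither was above background on any knockdown array. For such genes the control mean was compared with the lowest signal above background of each knockdown array, or with the probe's own signal if higher. This gave 12.1-fold for *Dcn* and 7.81-fold for *Col3a1*. Probes not above background can lie higher than that lowest signal, so these folds are approximate and not strict lower limits. These folds apply to the signal as deposited and not under normexp correction, which gave log2 fold changes of -1.88 for *Dcn* and -1.55 for *Col3a1*. *Col6a1* fell by 1.61 (adjusted p = 0.0467), *Thy1* by 0.86 (0.0105) and *Vim* by 0.79 (0.011). *Col5a2*, *Lum* and *Postn* were above background on no array. The call of *Col6a1* was lost with normexp correction (-0.78, adjusted p = 0.0672, with a range over all settings of 0.021 to 0.109). It was kept when control replicate 1 or *L3mbtl2*-KD replicate 2 was left out and lost without any other sample.

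The summed signal of the feeder markers, in multiples of the 75th percentile of the array, was 17.4, 23.3, 24.3 and 28.5 in control replicates 1 to 4 and 12.1, 10.3, 13.2 and 13.5 in *L3mbtl2*-KD replicates 1 to 4. *Vim* made up 51.7% of it. The groups were apart. The share of this signal that came from ESCs was not measured. Their part in the members' differences was not tested.

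Of 12 primitive endoderm markers, all tested, 9 fell and 0 rose with limma (10 and 0 at an unadjusted p under 0.05, 9 and 0 by a one-way test). The median log2 fold change was -1.69, or -0.74 with normexp correction. It was -1.40 with *Foxa2* compared with the lowest signal above background, as for *Dcn*. *Lama1* (-2.18, 0.000629), *Col4a2* (-2.13, 0.00089), *Sox17* (-2.07, or -1.10 with normexp correction, 0.0059, above background on 3 of 4 *L3mbtl2*-KD arrays), *Col4a1* (-1.87, 0.000821) and *Pdgfra* (-1.50, or -0.80, 0.00646) fell. *Foxa2*, not well above background on any *L3mbtl2*-KD array, fell (adjusted p = 0.00235), by about 2.45-fold in that comparison, again not a strict lower limit. The call of *Foxa2* was lost with normexp correction (-0.41, adjusted p = 0.0762, with a range over all settings of 0.00179 to 0.0762). *Dab2*, above background on 1 of these arrays, fell (adjusted p = 0.00206), with no exact fold given and a log2 fold change of -0.95 with normexp correction. *Gata4* (-0.92, adjusted p = 0.00515) and *Sparc* (-0.40, 0.049, and -0.46, 0.0389 for its other probe) also fell. The brightest *Sparc* probe passed when *L3mbtl2*-KD replicate 2 was left out and in no other such fit, and the other probe was not followed there. *Gata6*, which marks this lineage as *Gata4* does, did not pass the test (0.06, adjusted p = 0.883).

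The summed signal of the primitive endoderm markers was 99.3, 114, 100.8 and 112 in control replicates 1 to 4 and 72.2, 88.6, 69.0 and 62.6 in *L3mbtl2*-KD replicates 1 to 4, with 87.7% of it from *Sparc*. The groups were apart. The list rests on genes such as *Sparc*, *Col4a1* and *Lama1* that fibroblasts or ESCs can express too. The part of these markers in the members' differences was not tested.

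Of 10 trophectoderm markers, 9 were tested, and 0 rose and 0 fell with limma (0 and 2 at an unadjusted p under 0.05, 0 and 0 by a one-way test, and 0 and 2, *Cdx2* and *Krt8*, with the replicate block). All 9 were lower, or 8 with normexp correction, where *Hand1* turned, at a median log2 fold change of -0.38, or -0.15 with normexp correction, and *Elf5* was above background on no array. Their summed signal was 10.6, 17.6, 14.6 and 11.7 in control and 9.08, 15.4, 13.9 and 10.5 in *L3mbtl2*-KD replicates 1 to 4, with 55.7% from *Tfap2c*. The groups overlapped, and each knockdown sample was below the control of its number. Of 10 germ-layer markers, 7 were tested and 0 passed the test in either direction (0 and 0 at an unadjusted p under 0.05 and by a one-way test), at a median of -0.14 (-0.02 under quantile normalization, -0.04 with normexp correction), and with the replicate block 1 fell (*Gsc*). Their summed signal was 5.89, 6.41, 6.01 and 6.28 in control and 9.996, 6.06, 6.05 and 6.69 in *L3mbtl2*-KD replicates 1 to 4, with 62.4% from *Kdr*, so the groups overlapped.

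Of the 4 late PGC markers, 3 rose and 0 fell with limma, in each case with and without the block. *Ddx4* is counted among them and in the sum below. The cells were sorted on its reporter, so its rise was not independent of the sort. Beside *Ddx4*, *Dazl* (1.61, adjusted p = 0.00394) and *Stra8* (1.34, adjusted p = 0.00315) rose, and *Sycp3* did not pass the test (-0.11, adjusted p = 0.629). Their summed signal was 47.1, 32.5, 26.9 and 33.3 in control and 110, 93.3, 78.3 and 99.7 in *L3mbtl2*-KD replicates 1 to 4, with 86.4% from *Stra8*. The sums did not overlap, and gene by gene the groups were apart for 3 of 4, all but *Sycp3*.

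**Figure D5:**
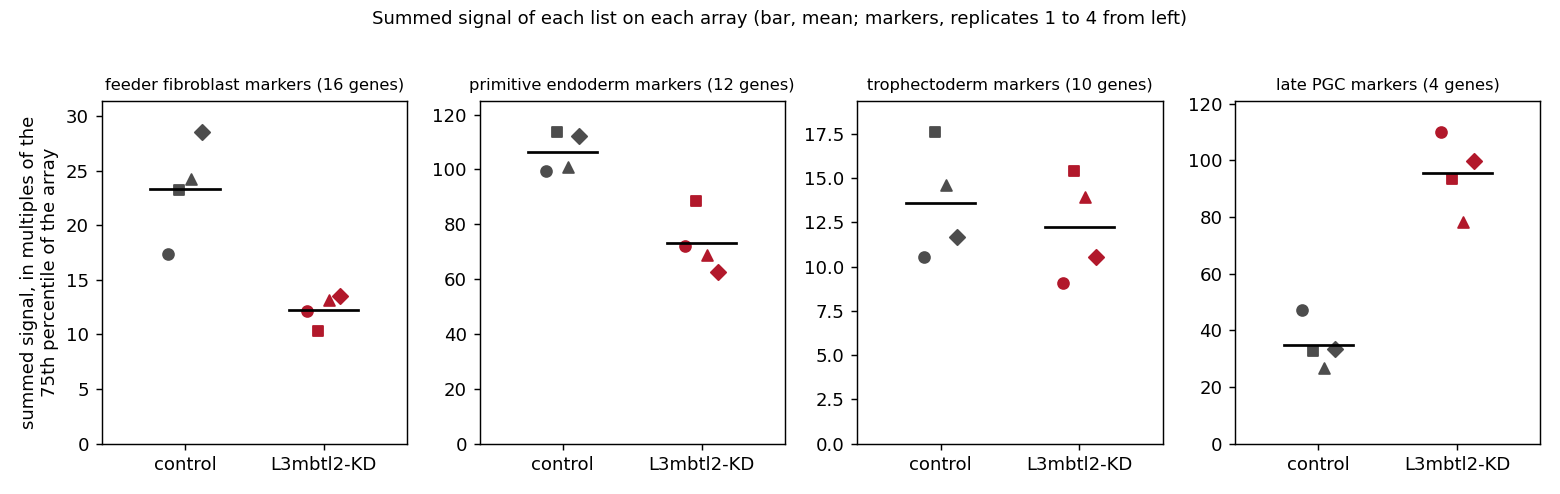
Summed signal of 4 marker lists on each array, in multiples of the 75th percentile of the array (axes from 0), with the mean of each group as a bar and replicates 1 to 4 from left to right. The feeder fibroblast and primitive endoderm sums of *L3mbtl2*-KD samples lie below those of all control samples, the trophectoderm sums overlap, and the late PGC sums lie above.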

How the data were processed

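The data are 8 one-colour Agilent mouse arrays, 4 of *L3mbtl2*-KD and 4 of control samples. The authors deposited the background-subtracted intensity of every spot (Feature Extraction 10.7.3.1), without normalization between arrays, and a table of log2 values made in GeneSpring. In the deposited log2 table each probe was centred on its median (r of 0.9995 to 0.9999 per array, rounded, against the centred signal used here, column medians -0.0589 to 0.0794). The replicates are described as biological, and p-values measure the spread between these samples.

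The 75th percentile of an array was subtracted from its log2 intensity. Control spots were dropped, as were spots the scanner marked as outliers, spots of a probe were averaged, and 0 probes were saturated. Of 39429 probes, 26055 were matched to a symbol by RefSeq accession (GRCm38.p6, used for names). A probe was tested if all arrays of either group had it well above background, which held for 23518, with limma 3.58.1 (R 4.3.3) and Benjamini-Hochberg adjustment over all of them. A gene rose or fell when at least one probe had an adjusted p under 0.05, and the brightest probe stands for a gene. Exact permutation tests were two-sided. Of the probes tested, 78 lacked a value on some array.

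Same-numbered samples deviated together (r 0.38 to 0.58 over 23440 probes, against -0.44 to 0.25 for other pairs), so the replicate numbers were taken to pair the samples. The numbers come from the sample titles. The arrays lay on 2 slides, with replicates 1 and 2 on the first and both groups on each.

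The members and the lists were chosen with earlier results of these data known. Named genes are the members, the siRNA target, the late PGC markers, list genes past the test (all over 2-fold, then the 4 largest rises and falls), those above background on no array, and the gene most like each member. Other list genes are named for their role, after their values were seen. Alternatives were normexp correction (offset 50, on the median signal), quantile normalization, the authors' table, other filters, slide and replicate blocks, an intensity trend, a one-way test and leaving out each sample.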

Additional observations from a re-analysis of the deposited data

Results flagged for a closer look

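In 3 of 22 groups of 4 samples tested (10 members and *L3mbtl2*, in each group), 1 sample lay far from the others, measured as its gap to the nearest sample over the whole range of the group. Chance flags about 1 in 20 groups, or 1.1 of 22. *Nanog* in control replicate 2 had a gap of 0.8943 of the range (signal -1.38, against a mean of -2.83 in the other control samples). *Pou5f1* in *L3mbtl2*-KD replicate 2 had a gap of 0.9089 of the range (4.43 against 4.35), in a group whose SD was 0.040. *Tbx3* in control replicate 4 had a gap of 0.8408 of the range (2.42 against 3.30). Without these samples the log2 fold changes were -0.95 for *Nanog*, -0.19 for *Pou5f1* and -0.96 for *Tbx3*.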

How the results depend on the processing

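Of 201 values of the 10 members under other settings, 187 kept their sign and, where a test was run, their call, whatever their size. Of the others, 5 lost the call, 6 gained it and 3 turned, and the cause was not tested. Values from slide 1 or slide 2 alone had no test, so only their sign was compared. Among the 187, *Nanog* was -0.69 with normexp correction and *Klf2* -0.54 to -0.073 and *Esrrb* -0.37 to -0.17 without single samples. With the one-way test unadjusted, *Pou5f1* (-0.17) had a p of 0.0149, 2 members fell, 1 LIF-STAT3 gene rose and 2 fell, 5 other pluripotency genes rose and 5 fell, and 2477 of all genes rose and 2654 fell. With Benjamini-Hochberg adjustment of it, *Klf4* (-0.70) had an adjusted p of 0.0641, 0 members fell, 1 LIF-STAT3 gene rose, 3 other pluripotency genes fell, 0 exit and formative genes fell, and 0 paralogues rose and 2 fell. With no filter on dim probes, *Klf4* (-0.70) had 0.0673, 0 members fell, 1 other pluripotency gene rose, 0 exit and formative genes fell, 0 paralogues rose and 2 fell, and 819 of all genes rose and 1047 fell. With the slide as a block, *Tbx3* (-0.74) had 0.0282, 2 members fell, 1 LIF-STAT3 gene rose and 2 fell, and 4 other pluripotency genes fell. With the replicate block, *Tbx3* (-0.74) had 0.00403 and *Tfcp2l1* (-0.45) 0.0049, 3 members fell, 2 LIF-STAT3 genes rose and 5 fell, 8 other pluripotency genes rose and 8 fell, 6 exit and formative genes rose, 4 paralogues rose and 11 fell, 2 trophectoderm and 1 germ-layer markers fell, and 3261 of all genes rose and 3547 fell. The block changed the call of no other member. With the intensity trend, 2 LIF-STAT3 genes fell, and 5 other pluripotency genes rose and 4 fell. With quantile normalization, 1 LIF-STAT3 gene rose. With normexp correction, 2 other pluripotency genes fell, 0 paralogues rose, and 194 of all genes rose and 159 fell by over 2-fold. With probes above background on all arrays, 0 paralogues rose and 290 of all genes fell by over 2-fold. Leaving out single samples gave log2 fold changes of -1.74 to -0.95 for *Nanog* (called without *L3mbtl2*-KD replicate 4), -0.79 to -0.55 for *Klf4*, -0.31 to 0.071 for *Klf5*, -0.96 to -0.55 for *Tbx3* and -0.046 to 0.19 for *Zfp42* (-0.0072 without control replicate 4). In these fits 0 to 2 members fell and 0 to 1 by over 2-fold, 1 to 2 LIF-STAT3 genes fell, 1 to 4 other pluripotency genes rose and 1 to 3 fell, 0 to 1 exit and formative genes fell, 0 to 1 paralogues rose and 1 to 4 fell, 0 to 1 trophectoderm markers fell, and 785 to 1398 of all genes rose and 997 to 1581 fell. Feeder and primitive endoderm markers that fell stayed at 6 to 10 in every setting, late PGC markers that rose at 3, and *L3mbtl2* at -1.48 to -1.19.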
